A study of Homo sapiens with 12 samples.

Results

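The regions described here are the STAT5B ChIP-Seq peaks that lay on chromosomes 3 to 22 in the lists of LOUCY and JURKAT, the T-ALL cell lines (lines grown from T-cell acute lymphoblastic leukemia) labelled low for phosphorylated STAT5 (pY-STAT5). The members were chosen by the chromosome on which a called peak was listed in the same libraries. Their numbers and their places along the chromosomes are therefore given as a description. Between low and high pY-STAT5 lines, 4 measures of the peaks, among them the share at promoters, were compared with a permutation test. There were 1082 such peaks among the 8654 of both low pY-STAT5 lists and the 24844 of all 6 lists, with 13 of 2338 in LOUCY and 1069 of 6316 in JURKAT. Each line gave 1 STAT5B library, made with R&D Systems antibody AF1584, and its peaks were called against an input library of that line and placed on GRCh38. The 4 high pY-STAT5 lines, SUP-T13, HSB-2, DND-41 and KOPT-K1, were processed in the same way; all 6 are precursor T-cell lines kept in RPMI medium with fetal bovine serum, with no treatment named for these libraries. Their genotype label, WT, names no engineered change; the study describes pathway mutations in some of the high lines, among them a *STAT5B* mutation in KOPT-K1, which are not analysed here. The lists hold called intervals only, the read depth of the libraries is unknown, and the lines are single libraries without replicates.

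STAT5A and STAT5B are transcription factors that wait in the cytoplasm until a kinase such as JAK1 or JAK3, bound to a cytokine receptor, phosphorylates them on a tyrosine. The phosphorylated proteins pair, enter the nucleus and bind GAS elements, short palindromes with a fixed spacer, near genes such as *CISH*, *PIM1* and *BCL2* that serve growth and survival of T cells. In developing T cells this pathway carries the signal of interleukin-7, and it is active in a share of T-ALL.

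The sequences at the summits, the positions of highest signal within each interval, are shown first because most members fell into 2 kinds of place: repeats near centromeres, and a long stretch of chromosome 3 in JURKAT alone. Each window has 101 bases of the forward strand of GRCh38, from 50 bp before to 50 bp after the summit. In the first set, capitals mark the core of the CENP-B box (TTCGNNNNANNCGGG), a motif of the centromeric alpha satellite, the GAS palindrome (TTCNNNGAA), or the pentamer TTCCA and its reverse complement TGGAA, a unit of classical satellite arrays, with 1 motif marked per window; both strands were searched, and the window without capitals held no GAS palindrome and no CENP-B box. The LOUCY windows came from chr10:41567631-41567731, chr10:40593385-40593485, chr5:49646032-49646132 and chr16:46380834-46380934.
LOUCY chromosome 10 with CENP-B box: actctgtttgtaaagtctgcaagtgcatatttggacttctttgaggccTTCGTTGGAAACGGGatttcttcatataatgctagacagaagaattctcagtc
LOUCY chromosome 10 with GAS palindrome: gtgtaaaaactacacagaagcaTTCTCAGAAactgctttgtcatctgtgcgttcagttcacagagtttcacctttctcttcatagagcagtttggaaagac
LOUCY chromosome 5 with the highest fold: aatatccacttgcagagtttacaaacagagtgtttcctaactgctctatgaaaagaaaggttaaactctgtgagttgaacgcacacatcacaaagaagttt
LOUCY chromosome 16 with pentamers: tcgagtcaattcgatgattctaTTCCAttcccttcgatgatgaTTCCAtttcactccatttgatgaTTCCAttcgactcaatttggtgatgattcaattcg

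The next pair shows members at genes outside chromosome 3, *RASA4* for LOUCY (chr7:102616605-102616705) and a U2 small nuclear RNA gene for JURKAT (chr17:43246595-43246695). Neither window held a GAS palindrome.
LOUCY chromosome 7 at RASA4: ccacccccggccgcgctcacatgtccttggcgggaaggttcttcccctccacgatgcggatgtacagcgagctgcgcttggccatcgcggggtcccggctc
JURKAT chromosome 17 at U2: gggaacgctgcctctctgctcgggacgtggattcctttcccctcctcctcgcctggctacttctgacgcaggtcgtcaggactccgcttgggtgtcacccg

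The last set comes from the JURKAT summits of chromosome 3, with the GAS palindrome in capitals. It shows the GAS-bearing summit with the highest significance (chr3:90941939-90942039), the GAS-bearing summit nearest upstream of *ALCAM* (chr3:105351425-105351525), those in intron 3 of *EPHA6* (chr3:97013619-97013719) and intron 10 of *SLC9C1* (chr3:112246601-112246701), and the summit in exon 1 of *ALCAM* (chr3:105367403-105367503), which had no palindrome. These summits were singled out after their values were seen. The first of them lay in a stretch that also held summits of LOUCY, DND-41 and HSB-2.
JURKAT chromosome 3 GAS: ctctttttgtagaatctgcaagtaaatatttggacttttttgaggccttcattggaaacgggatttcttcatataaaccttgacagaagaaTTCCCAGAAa
JURKAT upstream of ALCAM: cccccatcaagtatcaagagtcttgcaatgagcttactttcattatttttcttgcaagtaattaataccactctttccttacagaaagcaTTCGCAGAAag
JURKAT EPHA6 intron 3: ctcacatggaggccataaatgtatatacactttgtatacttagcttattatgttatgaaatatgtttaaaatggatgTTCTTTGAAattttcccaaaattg
JURKAT SLC9C1 intron 10: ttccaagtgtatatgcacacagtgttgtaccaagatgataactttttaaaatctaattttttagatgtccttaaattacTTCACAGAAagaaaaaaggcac
JURKAT ALCAM exon 1: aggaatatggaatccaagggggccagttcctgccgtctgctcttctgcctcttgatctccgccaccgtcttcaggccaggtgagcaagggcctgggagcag

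Peaks on chromosomes 3 to 22 made up 0.556% of the LOUCY list and 16.9% of the JURKAT list, while chromosomes 1 and 2 held 81.1% and 76.6% of these lists. The remaining peaks, 428 in LOUCY and 411 in JURKAT, lay on chromosomes X and Y and are used here only in an alternative count. In the high pY-STAT5 lists the same chromosomes held 34 peaks in SUP-T13 (0.778% of its list), 43 in HSB-2 (1.41%), 79 in DND-41 (1.31%) and 1528 in KOPT-K1 (55.5%), so the groups overlapped and JURKAT and KOPT-K1 each stood above the other 4 lines. The LOUCY members fell on 6 chromosomes, with 6 on chromosome 10, 2 each on chromosomes 3 and 5, and 1 each on chromosomes 4, 7 and 16. In JURKAT, chromosome 3 alone held 1055 members, and the other 14 were spread over chromosome 4 with 5, chromosome 10 with 3, chromosomes 5 and 7 with 2 each, and chromosomes 16 and 17 with 1 each. Of the 20 chromosomes, 13 therefore had no JURKAT peak at all, as the plot of peaks by chromosome shows.

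**Figure D1:**
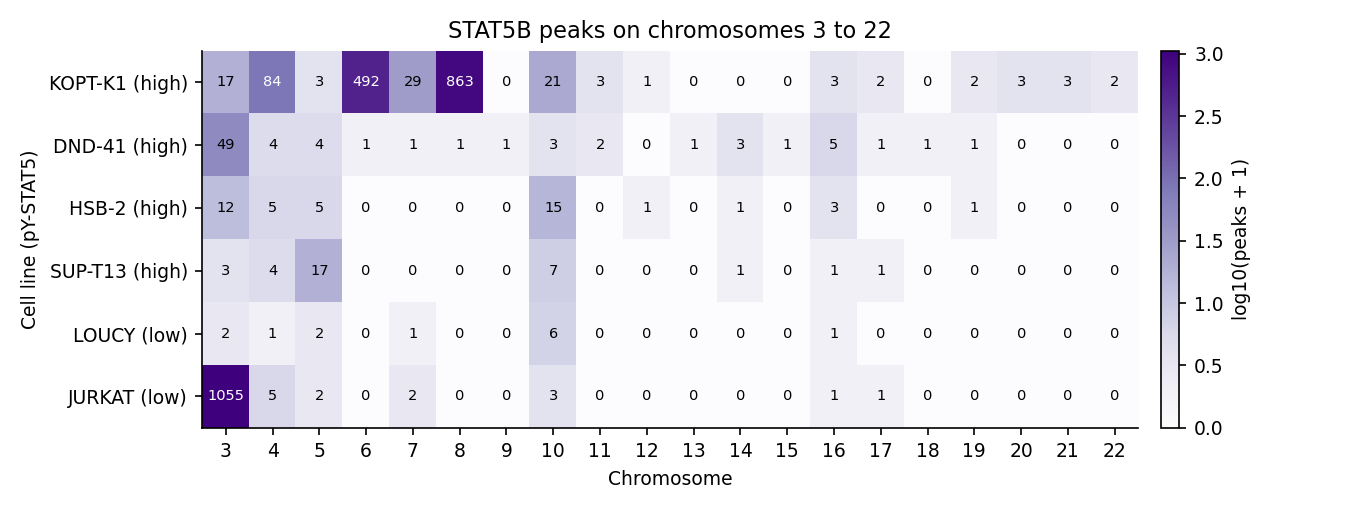
Number of listed STAT5B peaks on each of chromosomes 3 to 22 (x axis) in each cell line (y axis), printed in each cell and coloured by log10 of the number plus 1. JURKAT had 1055 peaks on chromosome 3, where the other lines had 2 to 49.

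The JURKAT summits on chromosome 3 spanned 58.5 Mb, from 76.1 to 134.6 Mb, which is 29.5% of a chromosome of 198 Mb. Their median position was 104.6 Mb, and the 10th and 90th percentiles lay at 95.5 and 118.9 Mb. When summits at most 1 Mb apart were joined and runs of at least 10 were kept as segments, 3 segments held 1041 summits, or 97.4% of the JURKAT members. The middle segment, at chr3:93723322-119053456, was 25.3 Mb long and held 882 summits at 34.8 per Mb. The segment before it, at chr3:77604968-91442223, held 67 summits over 13.8 Mb, or 4.84 per Mb, and the segment after it, at chr3:120163384-126752857, held 92 over 6.59 Mb, or 13.96 per Mb. By the same rule KOPT-K1 had 11 segments with 1401 of its 1528 members (91.7%), HSB-2 had 2 with 25 of 43 (58.1%), DND-41 had 1 with 47 of 79 (59.5%), and LOUCY and SUP-T13 had none.

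The intervals themselves filled much of the middle segment. They covered 23.4% of its bases, against 0.919% of the segment before and 3.66% of the segment after. The median distance between neighbouring summits was 13251 bp in the middle segment and 14637.5 bp over the whole of chromosome 3, with quartiles of 8235.5 and 32881.5 bp. Counted in bins of 1 Mb, the summits were most frequent at 97 to 98 Mb with 73, at 96 to 97 Mb with 68, and at 95 to 96 and 102 to 103 Mb with 57 each. The covered share peaked elsewhere: intervals took up 86.3% of the bin at 104 to 105 Mb with 47 summits, and 82.0% of the bin at 109 to 110 Mb with 53. Median interval lengths in these bins were 9927 and 10305 bp, so a smaller number of longer intervals covered more of the sequence than in the bins with the most summits.

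Across the 56 bins with a summit, the number of summits rose with the median length of their intervals (Pearson r 0.599, Spearman rho 0.774) and with their median fold enrichment (r 0.472, rho 0.483). Over the 57 bins that lay wholly within the span, which leaves out the bins of the first and last summit, the number of summits had an r of -0.281 with G and C content, an r of -0.0896 with the number of gene starts and an r of -0.0706 with the share of bases in gene bodies. These are descriptions across neighbouring bins of 1 library, which share its depth and its input. Bins with a JURKAT summit had a median G and C content of 37.6% and 4.34 gene starts per Mb, against 39.8% and 5.90 in the 142 bins of the chromosome without one.

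**Figure D2:**
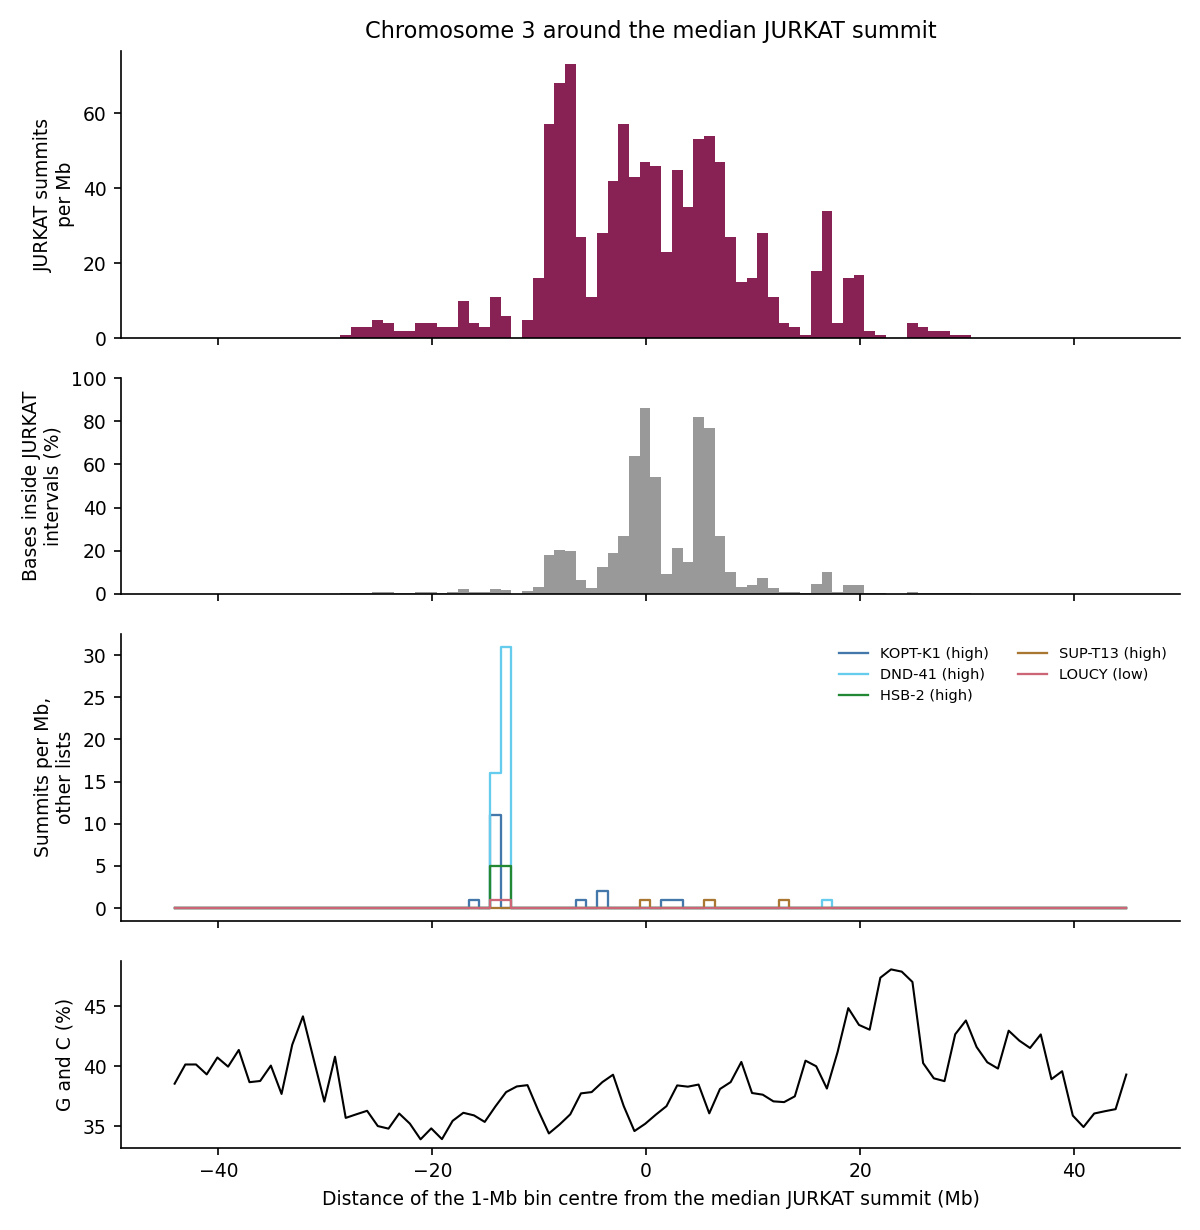
From top to bottom, JURKAT summits per 1-Mb bin, percent of bases inside JURKAT intervals, summits per bin in the other 5 lists, and percent G and C of the bin, each against the distance in Mb from the median JURKAT summit on chromosome 3. The JURKAT summits formed a broad rise with up to 73 per bin, whereas the other lists had few summits there outside a pair of bins before it, where DND-41 reached 31.

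The other lists had few summits in the middle and last of these segments but more in the first. In the middle segment KOPT-K1 had 5 summits, SUP-T13 had 3, and DND-41, HSB-2 and LOUCY had none. In the segment after it DND-41 had 1 and the other 4 lists had none. In the segment before it DND-41 had 44 summits, KOPT-K1 12, HSB-2 10, LOUCY 2 and SUP-T13 none. Of the 67 JURKAT summits in that segment, 10 lay in a tandem repeat with the period of alpha satellite, compared with 2 of the 882 in the middle segment. Interval by interval, 12 of the 1055 JURKAT members on chromosome 3 (1.14%) overlapped an interval of any high pY-STAT5 list, and none overlapped a LOUCY interval. On chromosomes 1 and 2 the share for any high list was 96.9% of the 4836 JURKAT peaks, and 81.6% of them overlapped a LOUCY interval. By high line it was 91.4% for SUP-T13, 51.6% for HSB-2, 48.9% for DND-41 and 2.46% for KOPT-K1. The intervals of the high lists covered between 146 Mb in KOPT-K1 and 321 Mb in SUP-T13 on these 2 chromosomes. Between the first and last JURKAT summit of chromosome 3 they covered from 0.00635% of the bases in SUP-T13 to 0.699% in DND-41.

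JURKAT also had long dense runs on chromosomes 1 and 2, which allow a comparison within the library. There were 8 segments there with 4799 summits, and their density ranged from 7.22 to 80.9 per Mb with a median of 34.5, so that 4 of the 8 were denser than the middle segment of chromosome 3. The median distance between JURKAT summits on chromosomes 1 and 2 was 12633.5 bp, against 14792 bp on chromosomes 3 to 22.

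Fold enrichment over input at the summit and the −log10 q-value are the values the peak caller gave. On chromosome 3 the JURKAT fold ranged from 1.64 to 2.79 with a median of 1.91, close to the 1.93 on chromosomes 1 and 2 of that line. The −log10 q-value ran from 1.31 to 6.93 with a median of 2.08; it was at least 2 in 682 of the 1055 peaks and at least 5 in 4, or 0.379%, against 2.21% of the JURKAT peaks on chromosomes 1 and 2. The fold values came in steps: the 5 commonest values, 0.0734 apart from 1.76 to 2.06, accounted for 432 peaks, or 40.9%. JURKAT intervals on chromosome 3 were 1511 to 81584 bp long with a median of 2864 bp, against 3673 bp on chromosomes 1 and 2. In 40.9% of them the summit lay within 200.0 bp of an end of the interval, compared with 33.1% on chromosomes 1 and 2.

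The LOUCY members were fewer, stronger and wider than those of JURKAT. Their fold ranged from 1.62 to 5.67 with a median of 2.51, above the 1.72 of the LOUCY peaks on chromosomes 1 and 2. The −log10 q-value ran from 1.55 to 163 with a median of 8.83, and it was at least 5 in 10 of the 13 members. Their lengths went from 2750.0 bp to 11.8 Mb with a median of 5233 bp, and the median distance between neighbouring summits was 23586 bp, against lengths of 10577 bp and distances of 32075 bp on chromosomes 1 and 2. There too the LOUCY intervals were longer than those of JURKAT, whose median was 3673 bp. The LOUCY distance rested on a few neighbouring summits: without the 1 member whose −log10 q-value was below 2 it was 169356 bp, above that of chromosomes 1 and 2. The 14 JURKAT members outside chromosome 3 had a median fold of 2.23 and a median −log10 q-value of 4.76, so in strength they lay between the JURKAT members of chromosome 3 and the LOUCY members.

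**Figure D3:**
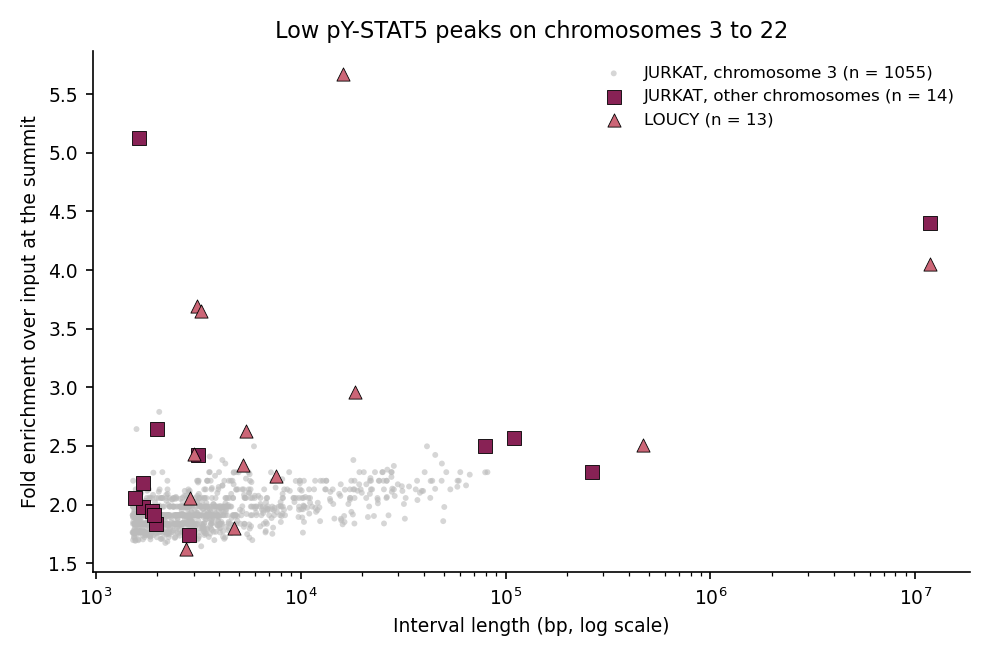
Interval length in bp (x axis, log scale) against fold enrichment over input at the summit (y axis) for each of the 1082 peaks. The 1055 JURKAT peaks of chromosome 3 stayed at or below a fold of 2.79, and 20 of the 27 others had a fold of 2 or more, with 1 interval of 11.8 Mb in each line.

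Those 27 members, 13 of LOUCY and 14 of JURKAT, came down to 10 places. Of these, 4 held LOUCY and JURKAT members among the 27, and the place on chromosome 3, counted here for its 2 LOUCY members, also held 4 of the JURKAT members of chromosome 3. An interval of at least 1 high pY-STAT5 line overlapped 9 of the 10 places, and the places on chromosomes 5 and 16 had intervals of all 4. Counted by interval, 12 of the 13 LOUCY members (92.3%) and 12 of these 14 JURKAT members (85.7%) overlapped an interval of a high pY-STAT5 list, beside the 1.14% on JURKAT chromosome 3. On chromosomes 1 and 2 the share was 77.3% in LOUCY. Of the LOUCY members, 10 overlapped HSB-2 intervals (76.9%, beside 33.2% of the LOUCY peaks of chromosomes 1 and 2), 6 KOPT-K1 (46.2%, beside 3.22%), 5 SUP-T13 (38.5%, beside 72.4%), 3 DND-41 (23.1%, beside 49.7%) and 5 JURKAT (38.5%, beside 51.2%). Counted from JURKAT, 9 of 1069 members (0.842%) overlapped a LOUCY interval. All these counts took an overlap of 1 bp or more, which long intervals meet easily. Where 50% of both intervals had to overlap, the LOUCY counts were 9 for HSB-2, 3 for KOPT-K1, 3 for SUP-T13 and 1 for DND-41. With summits within 1 kb they were 5, 3, 4 and 2 in the same order.

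The chromosome 16 place was the most significant member in each line. The LOUCY interval, chr16:34599131-46381919, had a fold of 4.05 and a −log10 q-value of 163, and the JURKAT interval, chr16:34599953-46381533, had 4.398 and 48.9. Their summits lay 2 bp apart and 198 kb from the nearest protein-coding gene, *SHCBP1*, whose product binds the adaptor SHC. The SUP-T13 summit lay 13 bp from that of LOUCY, and in the reference 69.2% of the interval is unsequenced, which leaves 3625 kb of the LOUCY interval as sequence. All 6 lists had an interval there, but their nearest summits differed: that of KOPT-K1 lay 5547 bp from the LOUCY summit, and those of DND-41 and HSB-2 lay 10311667 and 10324221 bp away.

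On chromosome 10 the 6 LOUCY members and 2 of the 3 JURKAT members lay at 39.98 to 41.59 Mb, where *ZNF33B*, a zinc-finger gene, and *PLD5P1* were the nearest genes at 989.9 to 1981 kb. The LOUCY summit at 39986487 had a fold of 3.69, and the summits of HSB-2 and KOPT-K1 were 15 and 16 bp away. The LOUCY summit at 41567681, whose window holds the CENP-B box shown above, had a fold of 2.44, and the summits of SUP-T13 and KOPT-K1 were 1 and 4 bp away. LOUCY and JURKAT summits came no closer to each other here than 1072 bp, although 2 of the intervals overlapped in each line.

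The strongest LOUCY member lay on chromosome 5 with its summit at 49646082, 750.1 kb from *EMB*, which encodes the membrane glycoprotein embigin. It had a fold of 5.67 and a −log10 q-value of 61.7, and the summits of KOPT-K1 and DND-41 were 44 and 53 bp away. The other LOUCY member there, with the summit at 49622496, had a fold of 2.96, a SUP-T13 summit at 14 bp and a JURKAT summit at 327 bp. On chromosome 4 a LOUCY interval of 469.5 kb near *CWH43*, a gene of lipid anchor remodelling, faced 5 JURKAT intervals, the longest 264 kb, of which 4 overlapped it. Unsequenced bases made up 31.9% of that LOUCY interval and 56.7% of that JURKAT interval. The LOUCY members on chromosome 3, with summits at 90881953 and 91182812, overlapped HSB-2 intervals with summits 21 and 75 bp away, and the stretch that spans them held 29 DND-41, 7 HSB-2 and 4 JURKAT summits.

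The remaining places held members of 1 low line. JURKAT had a peak with a fold of 5.12 and a −log10 q-value of 29.5 at a U2 small nuclear RNA gene, part of the splicing machinery, which lies within *CCDC200* on chromosome 17; the summits of DND-41 (fold 3.72) and SUP-T13 (fold 4.19) were 1 and 2 bp away. A JURKAT peak on chromosome 10 with its summit at 133689437, 62.6 kb from *FRG2B*, had a fold of 2.18, and the summits of DND-41 and SUP-T13 were 17 and 18 bp away. Of a pair on chromosome 7, the JURKAT summit at 56373566 had a DND-41 summit 15 bp away, and the interval around 73211846 was overlapped by none of the other 5 lists. LOUCY had a promoter peak in exon 1 of *RASA4*, a Ras GTPase-activating gene on chromosome 7, with a fold of 2.24 and the summit 37 bp from a start site. It also lay in the body of the overlapping gene ENSG00000205236, and a KOPT-K1 interval overlapped it with a summit 2073 bp away.

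A GAS palindrome lay within 50 bp of 39 of the 1069 JURKAT summits, or 3.65% with an exact (Clopper-Pearson) 95% interval of 2.61 to 4.95%. In equally long control windows lying 1000 bp before and after each summit it was 3.51% (2.77 to 4.38%), and at the JURKAT summits on chromosomes 1 and 2 it was 3.08% (2.61 to 3.61%). Of all windows of this size laid along the middle segment, 3.72% held the palindrome. The share at the JURKAT summits was thus within counting error of its surroundings. All 39 GAS-bearing summits were on chromosome 3, with 5 in the first segment, 29 in the middle and 5 in the last. The motif with a 4-base spacer (TTCNNNNGAA) was found at 4.30% of the JURKAT summits (3.17 to 5.70%) and in 2.72% of the control windows (2.07 to 3.50%), against 3.10% of the windows along the middle segment.

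In LOUCY, 1 of 13 summits (7.69%, interval 0.195 to 36.0%) had a GAS palindrome, against 6 of 24 control windows (25.0%, interval 9.77 to 46.7%), and a difference was not detectable with 13 members. The LOUCY share rose to 30.8%, and that of JURKAT to 7.86%, when windows reached 100 bp to either side of the summit. Wider windows hold more sequence, and no control share is given at that width, so the rise shows no enrichment. The shares in the high pY-STAT5 lists on these chromosomes ran from 3.47% in KOPT-K1 and 5.88% in SUP-T13 to 32.6% in HSB-2 and 50.6% in DND-41. DND-41 and HSB-2 stood above the other 4 lines, and their control windows were also high, with 30.3% in DND-41 and 17 of 85 windows in HSB-2. The plot of GAS shares shows these values beside chromosomes 1 and 2, where every line was lower than 10% at its summits.

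**Figure D4:**
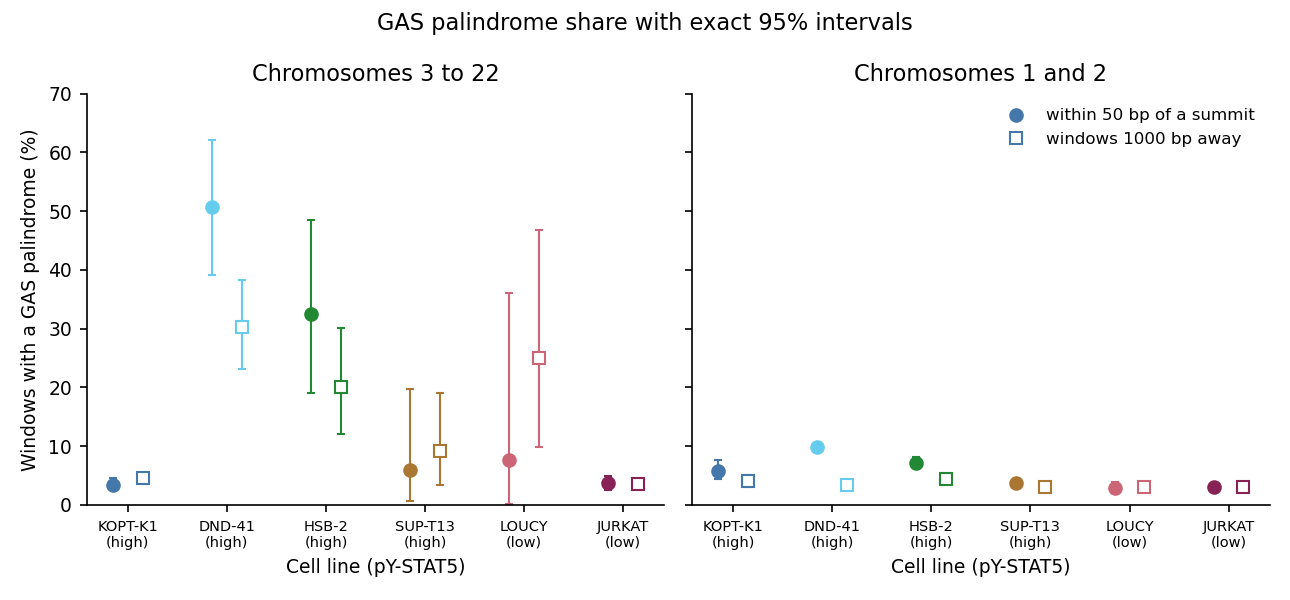
Percent of 101-base windows with a GAS palindrome (y axis) for each line (x axis), at the summits (filled circles) and 1000 bp away (open squares), on chromosomes 3 to 22 (left) and 1 and 2 (right); bars are exact 95% intervals. On chromosomes 3 to 22 JURKAT had 3.65% at summits and 3.51% in the control windows, and LOUCY 7.69% and 25.0%.

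Alpha satellite, the DNA of human centromeres, repeats a unit a little longer than the DNA around a nucleosome core, so each window was compared with the sequence 1 unit further on, allowing a few bases either way, and called a tandem repeat at 70% identity or more. This measure was chosen after the data were seen; it also passes arrays of other units that fit the same distance, so it does not tell alpha satellite from other satellites. By this measure 5 of the 13 LOUCY summits (38.5%) and 14 of the 1069 JURKAT summits (1.31%) lay in a repeat, with 33.3% and 1.22% of the control windows. Of those 14 JURKAT summits, 12 were on chromosome 3, whose repeat windows concentrated between 90 and 94 Mb. A GAS palindrome was present at 4 of the 14 repeat summits in JURKAT (28.6%) and at 35 of the other 1055 (3.32%). In the other lists, 1 of 34 SUP-T13 summits (2.94%), 18 of 43 in HSB-2 (41.9%), 24 of 79 in DND-41 (30.4%) and 28 of 1528 in KOPT-K1 (1.83%) on these chromosomes lay in such a repeat. Without the repeat summits, an alternative chosen after seeing the data, the GAS share of the low minus that of the high pY-STAT5 lines was -23.8 percentage points (exact permutation p 0.267). The CENP-B box occurred at 1 LOUCY summit and at none of the JURKAT summits. Median G and C content was 35.6% at the JURKAT summits of chromosome 3 and in their control windows, and 40.6% at the JURKAT summits of chromosomes 1 and 2; in LOUCY it was 39.6% at the summits and 38.1% in the control windows.

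Against protein-coding genes of GENCODE version 44, a promoter was the 2 kb to either side of any annotated transcript start. In JURKAT 38 of 1069 summits (3.55%, interval 2.53 to 4.85%) lay in a promoter and 433 (40.5%, interval 37.5 to 43.5%) in a promoter or gene body, against 9.72% and 53.7% on chromosomes 1 and 2. In LOUCY the *RASA4* summit was the only 1 of 13 in either (7.69%), against 11.2% and 57.9%. The share of the reference that is annotated gives a scale for the values of chromosome 3. It is not given for chromosomes 1 and 2, so the differences from them are not adjusted for gene density. Promoters take up 5.73% of the bases between the first and last JURKAT summit of chromosome 3 and held 3.60% of its summits (interval 2.56 to 4.91%), and promoters and bodies together take up 45.3% of the bases and held 40.9% of the summits (interval 38.0 to 43.98%). The middle segment had 37.2% of summits against 40.4% of bases in promoters or bodies, and the segment after it 83.7% against 75.4%. Of the 426 summits within gene bodies, 362 lay in introns, 11 in exons and 53 outside the canonical transcript, and 623 of the 1055 summits lay in no promoter or body. Only 12 JURKAT summits (1.12%) lay within 2 kb of the 5′ end of a gene, among them those of *EPHA6*, *ALCAM* and the olfactory receptor genes *OR5H1*, *OR5H14* and *OR5K1*.

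Of 15803 protein-coding genes on chromosomes 3 to 22, 81 had a JURKAT summit in promoter or body (0.513%), and 2 had a LOUCY summit (0.0127%). No gene had both. Of the 259 genes between the first and last JURKAT summit of chromosome 3, 80 had a summit (30.9%), and the median length of these was 119 kb, against 36.7 kb for those without. Over these 259 genes the number of body summits rose with gene length (r 0.472, rho 0.508), a description across genes of 1 chromosome that are not independent replicates. The members chose these genes by position, so nothing is read from the counts.

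*EPHA6* (ENSG00000080224.18), which encodes a receptor kinase for ephrins on neighbouring cells, had 78 body summits, or 18.3% of all body summits on chromosome 3. At a length of 947 kb this was 82.4 summits per Mb. *STXBP5L*, a regulator of vesicle release, followed with 39 summits at 75.5 per Mb. *ZPLD1* had 22, the matrix gene *ABI3BP* 20, and the cell adhesion gene *LSAMP* 18 over a much longer body, at 13.5 per Mb. *ALCAM*, *CD96* and *PHLDB2* had 16 each, and the germline gene *MORC1* had 15 at 93.8 per Mb. Of these summits, 17 of the 22 in *ZPLD1*, 13 of the 16 in *CD96*, 9 of the 16 in *PHLDB2* and 1 of the 18 in *LSAMP* lay outside the canonical transcript. The 10 genes with the most summits held 254 of the 426 body summits, or 59.6%.

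**Figure D5:**
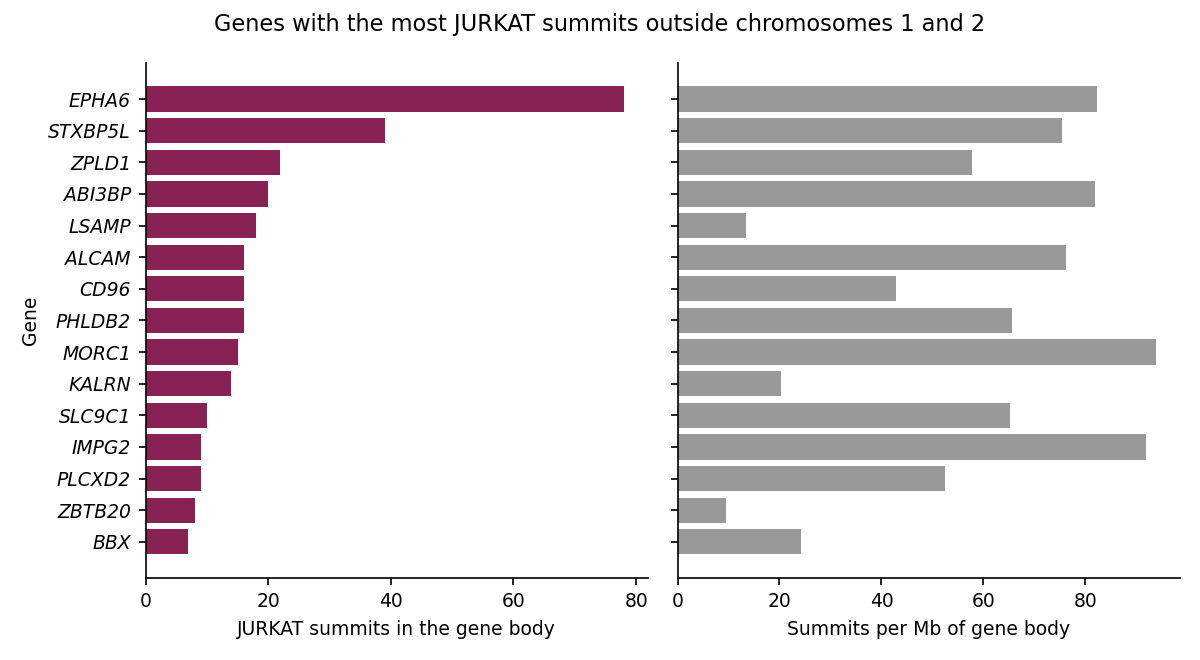
JURKAT summits within the gene body (left) and the same number per Mb of gene body (right) for the 15 protein-coding genes with the most body summits on chromosomes 3 to 22. *EPHA6* had 78 summits at 82.4 per Mb, and *LSAMP* 18 at 13.5 per Mb.

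The most significant JURKAT promoter summits were modest in strength. A pair at internal starts of *ABI3BP* had folds of 2.28 and 2.20 with −log10 q-values of 3.83 and 3.44, and *C3orf85* had a fold of 2.20. *MYLK*, the myosin light chain kinase gene, had a fold of 2.13, *RETNLB*, which encodes a resistin-like secreted protein, 1.98, and *ROPN1B*, a gene of the sperm tail, 2.03. *ALCAM*, the adhesion molecule that binds CD6 on T cells, had 2 promoter summits. The more significant lay in exon 1, 110.0 bp after the start site, with a fold of 1.93 and a −log10 q-value of 2.64. The next 4 promoter summits, in *ROBO1*, *ABI3BP*, *C3orf85* and *ROPN1*, were tied at a −log10 q-value of 2.35. The most significant JURKAT summits of chromosome 3 lay in no gene: those at 91083283 and 90941989 were 1601 and 1460 kb from *EPHA3*, with folds of 2.79 and 2.64. Both lay outside the middle segment, in the stretch described above that also held 29 DND-41, 7 HSB-2 and 2 LOUCY summits. Within the middle segment the JURKAT summits reached a fold of 2.50 and a −log10 q-value of 5.09.

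The gene lists for known pathways are given beside the shares of all genes, 0.513% for JURKAT and 0.0127% for LOUCY. None of the 13 known STAT5 target genes on chromosomes 3 to 22, none of 33 T-lineage and T-ALL genes and none of 15 cytokine receptor and JAK-STAT genes had a summit of LOUCY or JURKAT in promoter or body. The same held for each of the 4 high pY-STAT5 lists, so this does not set the low lines apart. None of these genes lay in the span of chromosome 3 that held 1055 of the 1069 JURKAT members. Among 27 T-cell receptor signaling genes 1 had a JURKAT summit and none a LOUCY summit. This was *CBLB*, which encodes a ubiquitin ligase that restrains T-cell receptor signals. It was the only 1 of the 27 within that span, where 80 of all 259 genes (30.9%) had a JURKAT summit. In the high pY-STAT5 lists *FOS* was the only 1 with a summit, in DND-41. *CBLB* had 4 JURKAT summits, at exon 19, intron 10 and a pair in intron 17, with folds of 1.79 to 1.92. Of the pair, 1 was 894 bp from an internal start.

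A further list of 16 lymphocyte genes within the JURKAT span of chromosome 3 was drawn up after the data were seen and is given as a description. A JURKAT summit lay in 8 of the 16, beside 80 of all 259 genes of the span (30.9%). *CD96*, a receptor of T and NK cells, had 16 summits at 42.9 per Mb with a fold of up to 2.38, and *ALCAM* had 16 at 76.2 per Mb with a fold of up to 2.20. *ZBTB20* had 8, *NECTIN3*, whose product binds nectin-like partners, 7, *CBLB* 4, *HHLA2* 3, *CD200R1* 2 and *BTLA*, an inhibitory receptor, 1. Outside the canonical transcript lay 13 of the 16 summits in *CD96*, with the highest fold among them, and 6 of the 7 in *NECTIN3*. Promoter summits were present in *ALCAM*, *CBLB* and *HHLA2* only. The other 8, *TIGIT*, *CD200*, *CD47*, *CD80*, *CD86*, *TRAT1*, *NFKBIZ* and *HCLS1*, had none.

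In the comparison of low with high pY-STAT5 lines the cell line was the unit. The exact two-sided permutation test used the 15 ways of choosing 2 of 6 lines. Its p was 2 times the share of ways at least as extreme in the same direction, so it cannot be below 0.133. The GAS share was 5.67% ± 2.86 (SD, n = 2) in the low and 23.1% ± 22.6 (SD, n = 4) in the high pY-STAT5 lines, a difference of -17.5 percentage points (exact p 0.667). On chromosomes 1 and 2 of the same lists the difference was -3.60 points (exact permutation p 0.133, the smallest this test can give). There LOUCY with 2.95% and JURKAT with 3.08% lay below all 4 high lines, which had 3.70 to 9.78%. The share of promoter summits was 5.62% ± 2.93 (SD, n = 2) against 3.20% ± 1.27 (SD, n = 4), a difference of 2.42 points (exact p 0.267). The median fold was 2.21 ± 0.425 (SD, n = 2) against 2.30 ± 0.368 (SD, n = 4), a difference of -0.0853. The median interval length was 4045 ± 1680.1 bp (SD, n = 2) against 3226 ± 1771 bp (SD, n = 4), a difference of 819 bp. Fold and length bear on whether a peak is called, so both describe the listed peaks only and are given without a p-value. After Benjamini-Hochberg adjustment over the 4 measures the exact permutation p was 0.8 for GAS share and for promoter share. Each difference was smaller than the larger of its SDs between lines, and on chromosomes 3 to 22 the groups overlapped in each measure, although both low lines had a higher promoter share than 3 of the 4 high lines. All 4 differences leaned on single lines. The GAS difference was -8.30 points without DND-41, and the promoter difference was 0.350 points without LOUCY, where it rests on 1 of 13 summits, and 4.49 without JURKAT. The fold difference changed sign to 0.0728 without DND-41 and to 0.215 without JURKAT, and was -0.386 without LOUCY, -0.193 without SUP-T13, -0.1715 without KOPT-K1 and -0.0497 without HSB-2. The length difference changed sign to -369 bp without LOUCY, and was 214 bp without SUP-T13, 1614 bp without KOPT-K1 and 2007 bp without JURKAT.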

How the data were processed

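STAT5B ChIP-Seq peak lists of 6 T-ALL cell lines, 1 library each, were used as deposited. Per the submitters' processing notes, reads were filtered with PRINSEQ-lite, aligned to GRCh38 with BWA 0.7.15-r1140 and handled with SAMtools 1.4, and peaks were called by the authors with MACS2 relative to each line's own input; the options of the caller are not given in the sources used here. The fold enrichment (ratio) over input, the −log10 p and −log10 q values and the score are those deposited by the authors; the score and −log10 p were not used here. Summits, intervals and GENCODE version 44 genes were joined and motifs searched in the GRCh38 sequence with Python 3.11.15, NumPy 2.4.6, SciPy 1.17.1, pysam 0.24.0 and samtools 1.23.1, and figures drawn with matplotlib 3.10.9. The motif, repeat and promoter steps were tested on simulated data. Shares have exact (Clopper-Pearson) 95% intervals, which cover counting error only, and the depth is unknown. The 4 measures compared between lines used an exact permutation test. The members and gene lists were chosen with earlier results of these data known. Genes were named by rule: those with a promoter summit in both low lines (none), those of the 10 most significant promoter summits per line, those at or nearest the 5 most significant summits per line, and list members with a summit; the genes with the most body summits, the lymphocyte list and the other genes named were chosen after their values were seen. The planned share of soft-masked bases could not be computed because the reference used has no lower-case bases; the tandem repeat measure took its place and was chosen after the data were seen. Alternatives covered significance, interval length, window, motif, annotation, segment rule, overlap rule and single lines.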

Additional observations from a re-analysis of the deposited data

Results flagged for a closer look

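On chromosomes 3 to 22 KOPT-K1 had 1528 peaks, whereas the lists of DND-41, HSB-2 and SUP-T13 had 34 to 79. The share of its list on these chromosomes was 55.5%, against 0.778 to 1.41% in the others. Both values lay apart from the rest of the group by more than Dixon's limit, which chance passes in about 5% of groups. In all, 6 measures were checked. The limit served only to flag these values. They rest on the chromosomes by which the members were chosen, so they are given as a description and nothing is concluded from the limit. Both values rest on the same peaks of 1 library, and the cause was not tested.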

How the results depend on the processing

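Of 72 alternatives, 52 left the result within its interval, its limit for counts or its direction, 17 moved it and 3 reversed it; the cause was not tested. With 13 LOUCY members these intervals were wide: LOUCY spacing went from 23586 to 169356 bp at a −log10 q-value of at least 2, and its GAS share from 7.69% to 30.8% in windows of 100 bp to either side and 16.7% among intervals up to 5 kb. At a −log10 q-value of at least 2 JURKAT kept 695 peaks with a median length of 3485 bp, a median spacing of 20758.5 bp and 5 segments, and at 5 it kept 10 peaks. With summits at most 0.5 Mb apart there were 6 segments. The JURKAT GAS share was 1.22% with a stricter form of the palindrome and 7.86% in windows of 100 bp to either side. The JURKAT promoter share was 1.87% at 1 kb, 7.67% at 5 kb and 1.12% with only the 5′ end of each gene, and 55.2% of summits lay in a promoter or body of all annotated genes. With chromosomes X and Y added there were 1480 JURKAT and 441 LOUCY peaks; LOUCY had 6 among intervals up to 5 kb, and, in an alternative chosen after seeing the data, 8 without tandem repeat summits. Shared LOUCY and JURKAT intervals went from 5 to 3 when 50% of both had to overlap, and to 2 for summits within 1 kb. Leaving out each line, the low minus high difference ranged from -24.0 to -8.30 for GAS share, 0.350 to 4.49 for promoter share, -0.386 to 0.215 for fold and -369 to 2007 bp for length. On chromosomes 1 and 2 it was -3.60 for GAS share (exact p 0.133), 0.857 for promoter share, -0.236 for fold and 1229 bp for length. The fold difference reversed without DND-41 (0.0728) and without JURKAT (0.215), and the length difference without LOUCY (-369). No paired analysis was possible because each number labels another cell line. With 1 library per line, small differences in shares cannot be resolved.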
